A study of Bos taurus and Bos indicus with 6 samples.

Results

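FOXP1 was represented on the bovine expression array by 2 probe sets, Bt.17019.1.A1_at and Bt.28682.1.A1_at, which were all those carrying this gene symbol among 24016 probe sets. Their signal was examined in circulating leukocytes from 3 Brahman and 3 Holstein cattle. The gene was chosen by its breed differences in these same 6 arrays, which ran in opposite directions in its probe sets, so those differences are given here as a description and were not tested. The main comparison of the breeds applied no filter on low values, and both probe sets entered it. Every animal was female, 6 months old and under heavy challenge with the cattle tick Rhipicephalus microplus, so no group without ticks serves as a baseline. Holstein is annotated as Bos taurus and Brahman as Bos indicus. Each array held the RNA of 1 animal, from all nucleated cells left after red cell lysis of jugular blood.

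FOXP1 encodes a forkhead transcription factor that mostly represses its targets. It is required for early B cell development and keeps naive T cells in a resting state, and it is also known to restrain monocyte differentiation. FOXP proteins bind DNA as dimers with themselves or with other FOXP members and recruit corepressors such as the NuRD and SMRT complexes. The gene is transcribed into many variants, and 30 RefSeq transcripts of bovine FOXP1 are listed for the ARS-UCD2.0 assembly. The sequence identifier given for each probe set is not that of any of these 30, but the sequences themselves were not compared. Neither probe set shares its sequence cluster, as named in the probe set identifier, with any other tested probe set.

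The levels are log2 values from RMA, a method that corrects background, normalises the arrays together and summarises the short probes of a probe set into 1 value per array. The median over probe sets lay between 6.54 and 6.61 on the 6 arrays. The arrays correlated with each other at 0.982 to 0.991 over probe sets, and the Holstein 3 array correlated with the Brahman 2 array (0.989) as closely as with Holstein 2 (0.988). All 12 T cell, 6 B cell, 5 monocyte and 9 neutrophil markers with a probe set had a mean above 5.08, the lower quartile over the table. So did 7 of 8 NK cell markers, 2 of 3 eosinophil and basophil markers and 4 of 7 red cell and platelet markers. Of all 9155 named genes 7979 also lay above it, so this level does not identify the cells. The number of arrays limits the precision.

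The first probe set, Bt.17019.1.A1_at, was low in every Brahman animal. It read 6.97, 7.18 and 6.91 in Holstein 1, 2 and 3, and 3.83, 3.49 and 3.87 in Brahman 1, 2 and 3. The breeds did not overlap, and 3.04 log2 units separated the lowest Holstein from the highest Brahman animal. The means were 7.02 ± 0.14 in Holstein and 3.73 ± 0.21 in Brahman (SD, n = 3 each). Brahman minus Holstein was -3.29 (SE 0.13), or 9.79-fold lower in Brahman. In the Brahman animals only 7.39%, 3.12% and 7.72% of probe sets on the same array read lower, whereas in Holstein 55.4% to 60.3% did. No detection call was used here, so a Brahman level this low may be background, and the fold is then not a measure of the transcript.

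The second probe set, Bt.28682.1.A1_at, was high in every Brahman animal. It read 6.33, 6.71 and 6.93 in Holstein 1, 2 and 3, and 8.53, 9.14 and 8.82 in Brahman 1, 2 and 3. Again the breeds did not overlap, with a distance of 1.60 between the highest Holstein and the lowest Brahman animal. The means were 6.65 ± 0.30 in Holstein and 8.83 ± 0.31 in Brahman (SD, n = 3 each). Brahman minus Holstein was 2.18 (SE 0.20), or 4.52-fold higher in Brahman. The signal lay in the middle of the array in Holstein, where 45.3% to 55.7% of probe sets read lower, and in its upper part in Brahman, where 80.6% to 87.1% did.

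**Figure D1:**
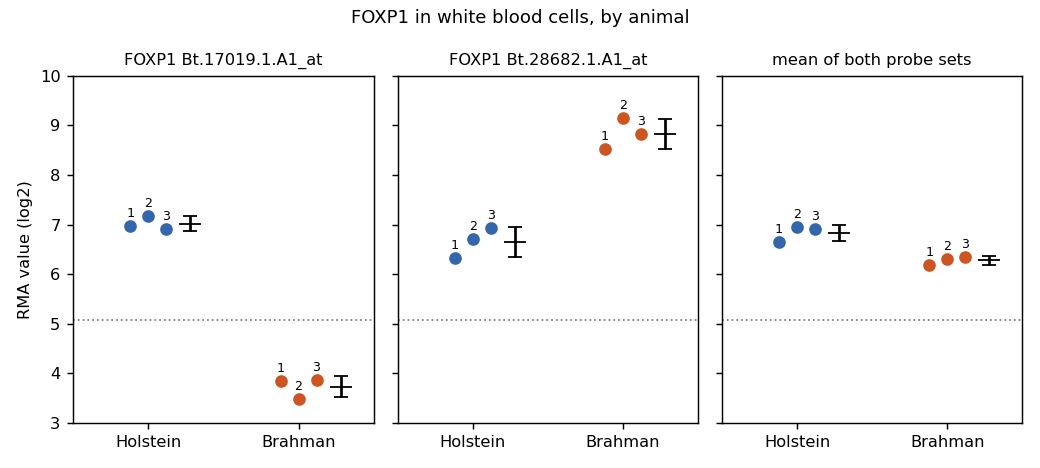
RMA values (log2) of the 2 FOXP1 probe sets and of their mean in each animal. Numbered points are the animals of each breed, the black marks show the mean and SD of 3 animals, and the dotted line is the lower quartile of all probe sets (5.08). The means are 7.02 in Holstein and 3.73 in Brahman for Bt.17019.1.A1_at, 6.65 and 8.83 for Bt.28682.1.A1_at, and the breeds overlap in no panel.

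Non-overlap alone was common on these arrays, at 20% of the 24016 probe sets. The size of the FOXP1 differences was not: 20 probe sets differed by at least 2 log2 units in either direction, 5 of them by at least 3. By absolute size the FOXP1 probe sets stood at rank 3 and rank 15. With limma, an adjusted p under 0.05 was reached by 0.137% of probe sets, 0.0583% lower and 0.0791% higher in Brahman, and both FOXP1 probe sets were among these 33 by the choice of the gene.

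Within each breed, the animal with the most signal in one probe set was not the one with the most in the other. Among Brahman animals, Brahman 2 was the lowest in Bt.17019.1.A1_at (0.24 below the breed mean) and the highest in Bt.28682.1.A1_at (0.31 above it). Among Holstein animals, Holstein 3 was the lowest in the first (0.11 below) and the highest in the second (0.27 above). These deviations are a small part of the breed differences. The pooled SD within breeds was 0.18 for the first probe set and 0.31 for the second, against a median of 0.15 over all probe sets, and 64.5% and 89.7% of probe sets had a smaller one.

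A single value for the gene depended on how the probe sets were combined. The mean of both read 6.65, 6.95 and 6.92 in Holstein 1, 2 and 3 and 6.18, 6.31 and 6.34 in Brahman 1, 2 and 3. This mean was 6.84 ± 0.16 in Holstein and 6.28 ± 0.09 in Brahman (SD, n = 3 each), a difference of -0.56 (SE 0.11) without overlap. Keeping only the brighter probe set would give 2.18, and keeping only the one with the larger difference would give -3.29. The array therefore gave no single breed direction for FOXP1. Probe sequences were not used here, so which transcript variants each probe set detects, and whether its probes match the transcripts of both breeds equally well, was not tested.

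The hybridisation spike-ins, bacterial and phage transcripts added to every sample, also separated the breeds, at 9.94, 10.38 and 10.10 in Holstein 1, 2 and 3 and 9.64, 9.71 and 9.80 in Brahman 1, 2 and 3. Fitted with the mean spike-in level of each array as a covariate, the FOXP1 differences were -3.07 (SE 0.24) and 2.50 (SE 0.36). Without the covariate the SEs were 0.13 and 0.20. The spike-in level goes with breed here, so this fit cannot tell their parts in a difference apart. Leaving out each animal in turn gave -3.36 to -3.17 for Bt.17019.1.A1_at and 2.01 to 2.33 for Bt.28682.1.A1_at.

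**Figure D2:**
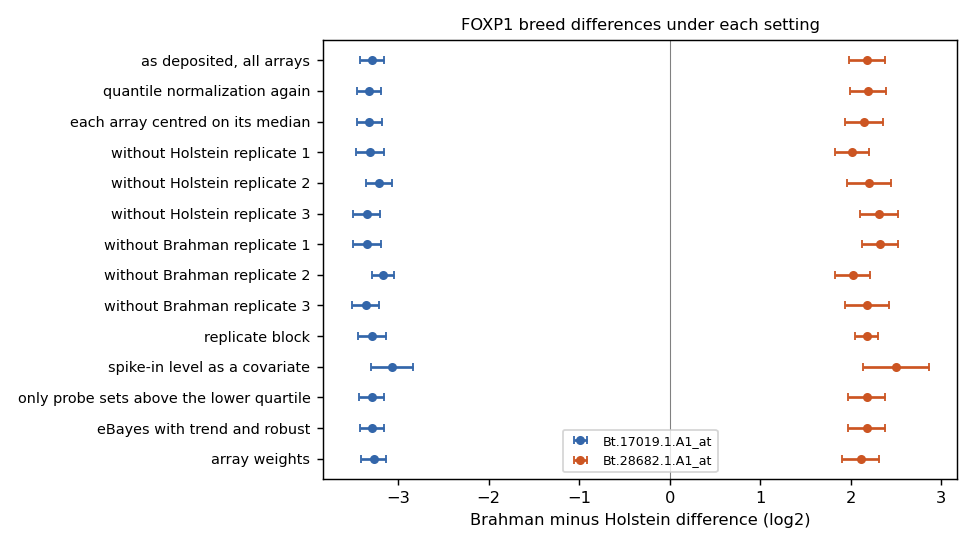
Brahman minus Holstein difference (log2, with its SE) of each FOXP1 probe set under each processing setting, as named on the vertical axis. Bt.17019.1.A1_at stays between -3.36 and -3.07 and Bt.28682.1.A1_at between 2.01 and 2.50, on opposite sides of 0 in all settings drawn.

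Disagreement of this size between the probe sets of a gene was not seen elsewhere on the array. Of the named genes, 2913 had more than 1 probe set. The distance between the highest and the lowest breed difference among the probe sets of a gene had a median of 0.17 and a 95th percentile of 0.61, and it exceeded 1 in 40 genes. For FOXP1 it was 5.47. The next widest distance was 2.33, for NEB, which encodes the muscle thin filament protein nebulin. Its probe sets differed by -2.17, 0.16 and 0.06. Those with 0.16 and 0.06 had means of 4.18 and 3.87 in Holstein and 4.33 and 3.93 in Brahman. These lie under the lower quartile of 5.08, where a change may be too dim to register. NEB was followed by NCEH1, a neutral cholesterol ester hydrolase, with -1.54 and 0.40, and by PTGR1, an enzyme that inactivates leukotriene B4, with -3.03 and -1.23. FOXP1 alone among the 2913 had probe sets past 1 log2 unit in both directions, which is the trait it was chosen for. Probe sets with an unadjusted p under 0.05 in limma in both directions occurred in 18 genes (0.618% of 2913), FOXP1 included by its choice. These values rest on the contrast for which FOXP1 was chosen and are no test of FOXP1.

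**Figure D3:**
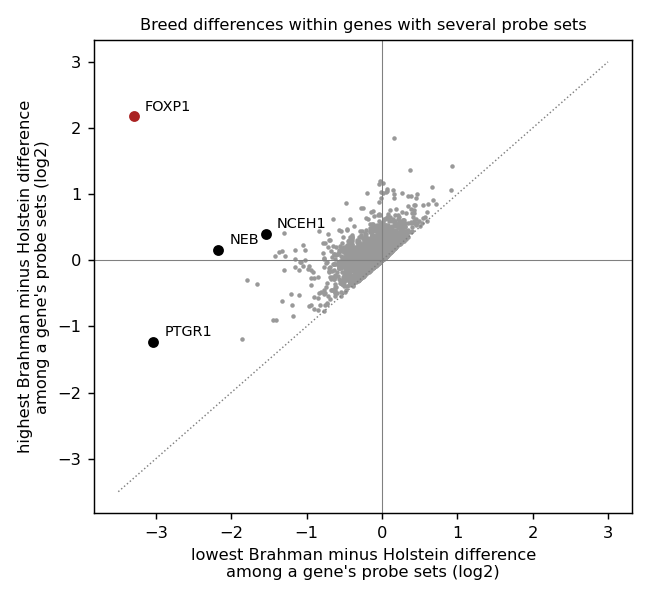
Lowest (horizontal axis) and highest (vertical axis) Brahman minus Holstein difference, in log2 units, among the probe sets of each of 2913 genes with more than 1. The dotted diagonal marks equal differences. FOXP1, at -3.29 and 2.18, lies apart from all others in the upper left quadrant, and the 3 genes with the next widest distances are labelled.

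The closest relatives of FOXP1, the other FOXP genes, differed between the breeds by at most 0.23 log2 units. FOXP4, which can pair with FOXP1, has 2 probe sets. The brighter one, Bt.28148.2.A1_at, read 8.58, 8.11 and 8.45 in Holstein 1, 2 and 3 and 8.70, 8.54 and 8.59 in Brahman 1, 2 and 3. It overlapped between the breeds and differed by 0.23 (SE 0.13, limma adjusted p = 0.499). The other FOXP4 probe set, Bt.28148.1.S1_at, differed by 0.070 (SE 0.10, limma adjusted p = 0.804). Both FOXP4 values turned negative with the spike-in covariate, at -0.20 and -0.13.

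FOXP2, another pairing partner, known mainly from the nervous system, read 4.15, 4.04 and 4.02 in Holstein 1, 2 and 3 and 4.10, 4.28 and 4.16 in Brahman 1, 2 and 3. FOXP3, the regulator of regulatory T cells, read 4.96, 4.67 and 4.68 in Holstein and 4.81, 4.80 and 4.98 in Brahman. Both genes lay under the lower quartile of 5.08, where a change may be too dim to register. Their breed differences were 0.11 and 0.09, with limma adjusted p-values of 0.641 and 0.774.

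Across the wider forkhead family, 9 of 40 listed genes other than FOXP1 had a probe set with their symbol. None of the 9 reached an unadjusted p under 0.05 in limma in either direction, against 15.8% of all 9155 named genes, and 0 reached an adjusted p under 0.05, against 0.164%. Of the 9, 8 had higher values in Brahman, with a median difference of 0.13 that became -0.074 with the spike-in covariate. Over all named genes the median was -0.0076. FOXN3, a cell cycle checkpoint repressor, differed by 0.15, the liver-enriched activator FOXA3 by 0.16 and FOXJ2 by 0.13, with limma adjusted p-values of 0.479, 0.532 and 0.559. The breeds did not overlap in FOXN3, FOXA3 and FOXJ2, 3 of the 9 genes, where 22.7% of all named genes did not. With the Holstein 1 array left out, 2 of the 9 were higher at an unadjusted p under 0.05.

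Genes of the proteins that FOXP factors bind or recruit gave few differences. Of 26 listed genes 22 were measured, and 1 was higher and 0 lower at an unadjusted p under 0.05 in limma, where 6.23% of all named genes were higher and 9.62% lower. The median difference was 0.074, or -0.040 with the spike-in covariate, and 0 members passed an adjusted p under 0.05. The higher gene was CHD3, an ATPase of the NuRD corepressor complex. It read 8.75, 8.87 and 8.82 in Holstein 1, 2 and 3 and 9.22, 8.87 and 9.34 in Brahman 1, 2 and 3. The breeds are separate, but barely so, since Brahman 2 equals Holstein 2 to 2 decimals. CHD3 differed by 0.33 (SE 0.13, limma adjusted p = 0.343), and the count of higher members was 0 without Brahman 1 or Brahman 3 and 2 without Holstein 2, Holstein 3 or Brahman 2. The NuRD subunit MTA3 differed by -0.25 and the corepressor CTBP2 by -0.25, with limma adjusted p-values of 0.393 and 0.433. The other MTA3 probe set, which lay under the lower quartile of 5.08, differed by 0.023 (limma adjusted p = 0.947). NFATC3, of the NFAT family with which FOXP proteins can share DNA sites, differed by 0.24 (limma adjusted p = 0.460). The largest difference of the list, 0.85 for the chromatin organiser SATB1, chosen after its value was seen, went with a wide spread between animals (SD of 0.77 in Holstein and 0.86 in Brahman) and a limma adjusted p of 0.504.

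Genes known as targets of FOXP1, or as parts of the programmes in which it acts, were measured for 14 of 30 listed. Well-known members such as IL7R, CCR7, FOXO1 and RAG1 were not analysed here, as the annotation used gave no probe set with their symbol. In limma, 5 of the 14 were higher in Brahman and 0 lower at an unadjusted p under 0.05, against 6.23% and 9.62% of all named genes, and 0 passed an adjusted p under 0.05. The median difference was 0.22, and 11 of 14 were higher in Brahman. The list was written with earlier results of these data known, and it holds LEF1, whose difference had been seen. The count of 5 became 3 without Holstein 2 and 2 with the spike-in covariate.

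LEF1, a regulator of naive T cells, read 9.07, 9.18 and 9.69 in Holstein 1, 2 and 3 and 10.38, 10.02 and 10.40 in Brahman 1, 2 and 3. It differed by 0.96 (SE 0.18, limma adjusted p = 0.120) without overlap. TCF7, its close relative in resting T cells, read 11.05, 10.93 and 11.59 in Holstein and 12.18, 11.86 and 12.07 in Brahman. It differed by 0.85 (SE 0.18, limma adjusted p = 0.151), and its other probe set differed by 0.72. Both genes were highest among Holstein animals in Holstein 3, the animal with the highest value of Bt.28682.1.A1_at in that breed. Among Brahman animals both were lowest in Brahman 2, where that probe set was highest.

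The other 3 higher members were S1PR2, BTG1 and S1PR1. The sphingosine phosphate receptor S1PR2, reported as repressed by FOXP1 in lymphoma, differed by 0.34 (SE 0.09, limma adjusted p = 0.214), and the antiproliferative quiescence gene BTG1 by 0.29 (SE 0.10, limma adjusted p = 0.279). S1PR1, the receptor by which lymphocytes leave lymphoid tissue, differed by 0.85 (SE 0.33, limma adjusted p = 0.335), with overlap between the breeds, and was named after its value was seen. The S1PR1 difference was 0.51 without Brahman 2 and 0.43 with the spike-in covariate, which also took that of BTG1 to 0.16. The unadjusted p of S1PR1 in limma was above 0.05 without Holstein 1, Holstein 2 or Brahman 2 (0.0963, 0.119 and 0.0942) and with the replicate block (0.0681), and that of BTG1 without Holstein 2, Brahman 2 or Brahman 3 (0.055, 0.0686 and 0.056). CSF1R, the macrophage growth factor receptor that FOXP1 represses in monocytes, differed by -0.31 (limma adjusted p = 0.468) with overlapping breeds and was likewise chosen after its value was seen.

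In a mixed cell population, fewer cells of a type and less RNA per cell cannot be told apart. The mean of the 12 measured T cell markers lay between 9.35 and 9.49 in Holstein and between 9.73 and 9.84 in Brahman, without overlap. By the brightest probe set, 9 of 12 were higher and 0 lower at an unadjusted p under 0.05, against 6.23% and 9.62% of all named genes. Over all 21 probe sets of these markers 12 were higher and 1 lower, where 13.6% of all probe sets passed in either direction. The lower one was CD2 Bt.10954.2.S1_a_at, at -0.72 (limma adjusted p = 0.0645). The mean of 8 NK cell markers was 7.73 to 7.90 in Holstein and 7.98 to 8.56 in Brahman, but this separation rests on granzyme B (GZMB), the 1 member with an adjusted p under 0.05 in limma (2.51, adjusted p = 0.0264). Without GZMB, left out after its value was seen, the mean was 7.87 to 8.01 in Holstein and 7.73 to 8.37 in Brahman, with overlap. Of the 7 markers left, 5 were higher in Brahman and 2 lower. KLRD1 differed by 0.90 (limma adjusted p = 0.216) without overlap, and perforin (PRF1) by -0.60 (limma adjusted p = 0.326) with overlap. The mean of 6 B cell markers was 9.87 to 10.09 against 9.98 to 10.21, and that of 5 monocyte markers 9.66 to 10.04 against 9.25 to 9.69, both with overlap. Of the 5 monocyte markers 4 were lower in Brahman and 1 higher, with a median difference of -0.54. CD14 differed by -0.94 and VCAN by 0.92, neither overlapping between the breeds (limma adjusted p = 0.141 and 0.0719). The part of cell composition in the FOXP1, LEF1 and TCF7 differences was not tested. The largest difference among these T cell markers was 0.77, for the kinase ZAP70, chosen after its value was seen.

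**Figure D4:**
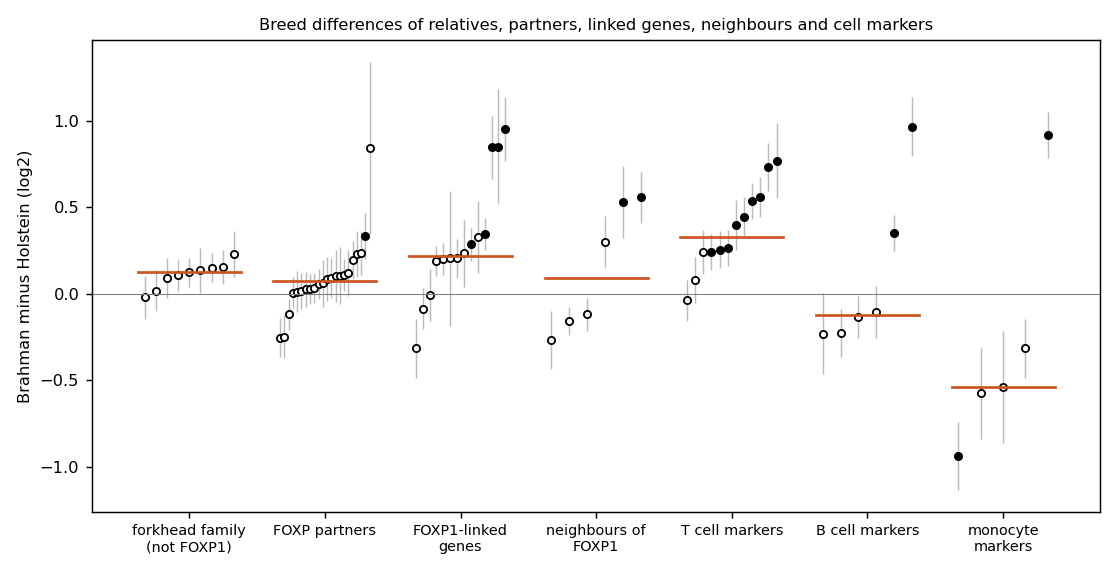
Brahman minus Holstein difference (log2, grey bars show the SE) of each measured member of the gene groups named below the axis, with 1 probe set per gene except for the neighbours, where each probe set is drawn. Filled points have an unadjusted p under 0.05 in limma and orange lines are group medians. The medians are 0.13, 0.074 and 0.22 for the relatives, partners and linked genes and 0.091 for the neighbours. They are 0.33, -0.12 and -0.54 for the T cell, B cell and monocyte markers. None of the members drawn reached an adjusted p under 0.05.

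Of the 5 protein-coding genes on each side of FOXP1 in the RefSeq annotation, 5 of 10 had a probe set, 6 probe sets in all. Directly next to FOXP1, on opposite sides, lie EIF4E3 and MDFIC2, and MDFIC2 had no probe set. EIF4E3, which encodes a cap-binding translation factor, was higher in Brahman in both of its probe sets at an unadjusted p under 0.05 in limma. Of all probe sets, 13.6% reached this in either direction. Bt.18928.1.A1_at read 8.80, 8.78 and 8.51 in Holstein 1, 2 and 3 and 8.98, 9.44 and 9.33 in Brahman 1, 2 and 3, and differed by 0.56 (SE 0.15, limma adjusted p = 0.203). Bt.4424.1.S1_at read 6.02, 5.48 and 6.17 in Holstein and 6.24, 6.74 and 6.29 in Brahman, and differed by 0.53 (SE 0.21, limma adjusted p = 0.340).

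Neither EIF4E3 probe set overlapped between the breeds, and Brahman 2 was the highest animal in both, as it was in FOXP1 Bt.28682.1.A1_at. The SHQ1 probe set, lower in Brahman, did not overlap either. Thus 3 of the 6 neighbour probe sets did not overlap, against 20% of all probe sets. With the spike-in covariate the EIF4E3 differences were 0.68 and 0.0083, the second of them close to 0. The second, Bt.4424.1.S1_at, was 0.32 without Holstein 2 and 0.37 without Brahman 2, and its unadjusted p was above 0.05 without Holstein 1, Holstein 2 or Brahman 2 (0.0501, 0.108 and 0.124 in limma) and with the replicate number as a block (0.0774). With all arrays and no covariate, the other neighbours did not reach an unadjusted p under 0.05. MITF, a transcription factor of osteoclasts, mast cells and pigment cells, differed by -0.27, which became -0.82 with the spike-in covariate (limma adjusted p = 0.381, unadjusted p = 0.0048) and -0.090 without Holstein 1, and which was -0.40 without Holstein 2 (unadjusted p = 0.0478 in limma). SHQ1, an assembly factor of small nucleolar ribonucleoproteins, differed by -0.16, and ARL6IP5, a membrane protein of the endoplasmic reticulum, by -0.12. PROK2, a secreted chemoattractant, differed by 0.30 from a Holstein level of 4.92 that lay under the lower quartile, by 0.14 without Brahman 2, and by 0.43 without Brahman 3 (limma adjusted p = 0.449, unadjusted p = 0.0215). No neighbour passed an adjusted p under 0.05 in limma.

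The named probe sets whose values followed each FOXP1 probe set most closely were ranked by Pearson correlation over the 6 arrays, among 13290 candidates. With 2 groups of 3 arrays, any probe set that separates the breeds scores highly, so the coefficients describe the arrays and carry no test. For Bt.17019.1.A1_at the closest were GOSR2, a Golgi SNARE protein (0.997), PPP1R1B, an inhibitor of protein phosphatase 1 (0.994), the mitochondrial protein CMC2 (0.993), the disulfide isomerase PDIA5 (0.993) and the asparaginyl-tRNA synthetase NARS1 (0.991). Only PPP1R1B had a difference near that of FOXP1, at -3.11, and the other 4 differed by -0.50 to -0.28. NARS1 has 3 probe sets, whose differences ran from -0.28 to 0.38. Among them NARS1 reached an unadjusted p under 0.05 in limma in both directions. PPP1R1B had, like FOXP1, its lowest values in all 3 Brahman animals, at 5.67, 5.78 and 6.19, but Brahman 1 and not Brahman 2 was the lowest.

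For Bt.28682.1.A1_at the closest were PHF12, a subunit of a SIN3 corepressor complex (0.997), HERPUD2, an endoplasmic reticulum protein (0.991), the cytochrome P450 enzyme CYP2U1 (0.989), ESYT2, a tether between endoplasmic reticulum and plasma membrane (0.987), and the Golgi protein PAQR3 (0.984). All 5 were higher in Brahman, by 0.27 to 0.63, well short of the 2.18 of FOXP1. PHF12 kept the order of the Brahman animals, at 7.73, 7.94 and 7.83 in Brahman 1, 2 and 3. HERPUD2 and ESYT2 did so too, although HERPUD2 was equal to 2 decimals in Brahman 2 and 3. CYP2U1 and PAQR3 did not.

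**Figure D5:**
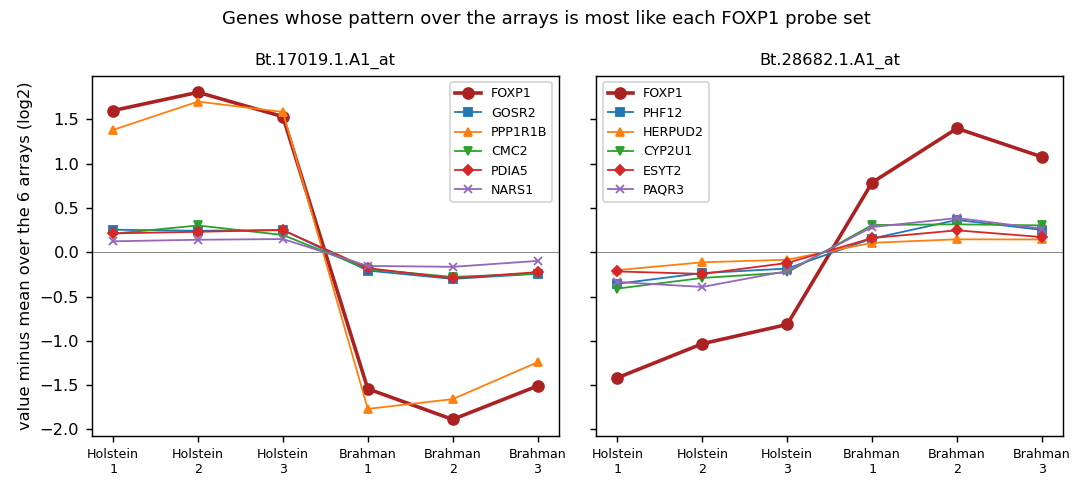
Values (log2) of each FOXP1 probe set and of the 5 named genes that correlate best with it, each minus its own mean over the 6 arrays, by array. Lines only join the points of a probe set. On the left, PPP1R1B alone comes near the span of FOXP1 (differences of -3.11 and -3.29), and on the right no gene does.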

How the data were processed

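The deposited values are on a log2 scale, with a row for each probe set and a column for each animal, and per the submitters' processing notes they come from RMA. The RMA version and a genome build are not given in the sources used here. Of 24128 probe sets 112 are array controls, and 24016 were tested. The platform annotation gave 1 gene symbol for 13292 of them, several for 86 and none for 10638. The FOXP1 probe sets, the gene lists and the neighbours were chosen with earlier results of these data known.

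Brahman was compared with Holstein in limma 3.58.1 under R 4.3.3 (lmFit, eBayes with its default prior), two-sided, with Benjamini-Hochberg adjustment over all 24016. All differences are Brahman minus Holstein, and SE is the moderated standard error. Lists used the brightest probe set of each gene. Named genes were the 4 with the smallest p of each of the forkhead, partner and FOXP1-linked lists, and all neighbours with a probe set. The 5 most correlated with each FOXP1 probe set and the 3 with the widest distance between their probe sets were also named. From the cell marker lists only some members were named, not always the 4 with the smallest p. RefSeq ARS-UCD2.0 gave gene order only. The fit was tested on simulated arrays. Replicate numbers were not taken as pairs, since the correlation of deviations between same-numbered arrays was 0.11, -0.04 and -0.07. Alternatives were array weights, other normalisations, a different prior, removal of dim probe sets, a replicate block, the spike-in covariate, gene means and leaving out each animal. Probe sequences and scanner intensities were not used here.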

Additional observations from a re-analysis of the deposited data

How the results depend on the processing

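Both FOXP1 differences kept their direction in all 13 alternatives each. They moved by more than the spread within breeds only with the spike-in covariate, to -3.07 and 2.50, and without each animal in turn they ran from -3.36 to -3.17 and from 2.01 to 2.33. The count of 33 called probe sets was 5 to 55 without each animal, 10 with the replicate number as a block, 13 for gene means, and 0 with the spike-in covariate, where 2400 probe sets had an unadjusted p under 0.05 in limma. The spike-in level separates the breeds, so the fit with this covariate cannot tell a spike-in effect from a breed difference, and the SEs of both FOXP1 differences were larger in it. With that covariate the medians became -0.074 for the forkhead family, -0.040 for the partner proteins and -0.073 for the neighbours, and the FOXP4 differences became -0.20 and -0.13. The neighbours' median, 0.091 with all arrays, ran from 0.00036 without Brahman 2 to 0.17 without Brahman 3 and was -0.12 with only probe sets above the lower quartile, which removes PROK2. Among members of the forkhead, partner and FOXP1-linked lists and the neighbours, 0 were called at an adjusted p under 0.05 in any alternative, the replicate block included; the cell marker lists were not run under these alternatives. The filter on dim probe sets keeps FOXP1 Bt.17019.1.A1_at through its Holstein values. The level of a probe set near background cannot show how far it falls.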

Other observations

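Of the 17 other genes with probe sets that reached an unadjusted p under 0.05 in limma in both directions, the 3 with the widest distance were TMC6, GRO1 and CD2, looked up after the values of FOXP1 were seen. TMC6, a membrane protein involved in control of papillomavirus in skin, had -1.30 and 0.42 in its probe sets, neither overlapping between the breeds. The T cell adhesion receptor CD2 had -0.72 in Bt.10954.2.S1_a_at, 0.40 in Bt.10954.1.S1_at and 0.07 in Bt.10954.2.S1_at. The first of these read 8.06, 8.08 and 7.96 in Holstein 1, 2 and 3 and 7.39, 7.17 and 7.37 in Brahman 1, 2 and 3, while 11 of the 12 measured T cell markers, CD2 by its brightest probe set among them, were higher in Brahman. The neutrophil chemokine gene GRO1 ran from -0.84 to 0.45 over 4 probe sets. None of these probe sets reached an adjusted p under 0.05.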
